A study of Mus musculus with 6 samples.

Results

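The nuclear receptors described here are the retinoid X receptors (Rxra, Rxrb, Rxrg), the peroxisome proliferator-activated receptors (Ppara, Ppard, Pparg), the liver X receptors (Nr1h3, Nr1h2), Hnf4a and Nr5a2, measured as transcripts in mouse liver. Every non-control probe whose RefSeq accession belongs to 1 of these 10 genes was taken, which gave 17 probes of the 56605 on the array, and 10 of the 22911 genes that could be named. Male mice, 12 weeks old, were fed regular granulated chow (control, 100% regular food, 3 mice) or the same chow enriched with soy (soy, 75% regular food and 25% soy bean powder, 3 mice) for 4 weeks. The strain of the mice is not given in the sources used here. RNA of the right liver lobe of each mouse was hybridized to its own 1-colour Agilent array, and values are quantile normalized log2 signals.

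These receptors are transcription factors, and several of them are switched by lipids. RXRs bind DNA as the shared partner of many other receptors, among them the PPARs, which respond to fatty acids, and the LXRs, which respond to oxysterols. HNF4A and NR5A2 (LRH-1) do not need RXR and maintain hepatocyte identity and bile acid and sterol handling. In the liver RXRA, PPARA, LXR-alpha and HNF4A are the forms best known for metabolic control, whereas RXRG and PPARG are better known from muscle and brain and from fat tissue.

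Of the 10 receptor genes, Rxrg alone passed the test and was higher in soy livers, 2.71-fold (95% interval 2.04 to 3.61, n = 3 per group). This call was lost with the slide as a block (adjusted p = 0.112), with a normexp offset of 16 in place of 50 (0.0540) and when any 1 array except control 3 was left out. To pass, a probe needed a limma adjusted p below 0.05 and a fold change beyond 1.5 upwards or 0.66 downwards. This was met by 0.350% of all probes (0.208% higher and 0.141% lower in soy) and, by at least 1 probe, by 0.532% of named genes (0.340% higher and 0.192% lower). Pparg changed next most, 2.38-fold higher in soy (1.66 to 3.43), and did not pass (adjusted p = 0.0811). The other 8 genes changed by −0.27 to 0.07 on the log2 scale over their 15 probes, with adjusted p-values of 0.475 or more. On the brightest probe of each gene, 3 receptors were higher and 7 lower in soy, with a median change of −0.07 against −0.01 for all named genes. The groups did not overlap in 4 of the 10 genes, against 20.4% of named genes. An unadjusted p under 0.05 was found for 2 of the 10, against 14.3% of named genes. In whole liver, fewer cells of a type and less RNA per cell cannot be told apart.

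**Figure D1:**
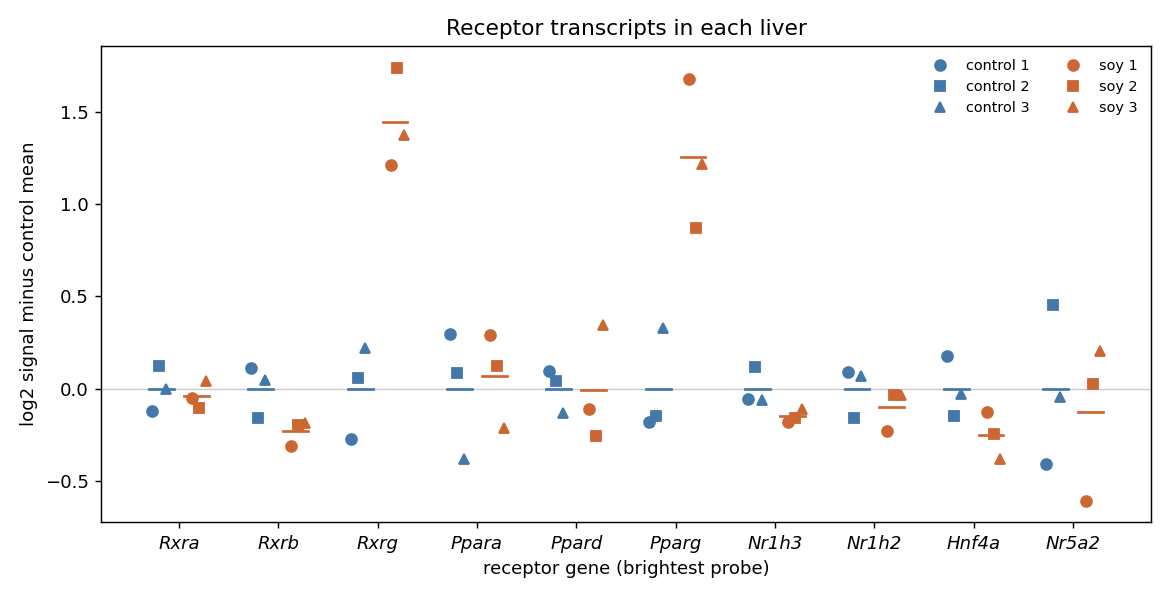
Log2 signal of the brightest probe of each receptor on each array, minus the mean of its 3 control arrays (blue, control; orange, soy; circle, square and triangle, replicates 1, 2 and 3; bars, group means). Rxrg and Pparg are the genes in which all 3 soy arrays lie well above all 3 control arrays, with group means 1.44 and 1.25 apart, while the group means of the other 8 genes differ by −0.25 to 0.07 and single arrays spread more widely, as in Nr5a2.

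All 17 probes were well above background on all 6 arrays, none was saturated and none was marked as an outlier. The arrays differed in the spots that were well above background, with 37010, 36366 and 38163 on control 1 to 3 and 31308, 31988 and 32498 on soy 1 to 3. Every control array thus had more such spots than every soy array, and the part of this in the results below was not tested. Slide 1 held controls 1 and 2 together with soy 1, slide 3 held the third control and the third soy array, and soy 2 was alone on slide 2. The tissue label was checked with hepatocyte markers, all 6 of which were well above background on all 6 arrays. Alb, the serum albumin gene, had log2 signals of 18.99, 18.99 and 19.01 in control and 18.99, 18.92 and 18.66 in soy.

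Rxrg encodes RXR-gamma, an RXR form with a restricted tissue range. RefSeq places its transcription starts at 2 positions on chromosome 1 (GRCm38.p6, plus strand). The 250 bases before each are shown because Rxrg is the receptor that passed the test. Capitals mark AGGTCA, the hexamer that these receptors read singly or as spaced repeats.
Rxrg, upstream start, chr1:167598112-167598361: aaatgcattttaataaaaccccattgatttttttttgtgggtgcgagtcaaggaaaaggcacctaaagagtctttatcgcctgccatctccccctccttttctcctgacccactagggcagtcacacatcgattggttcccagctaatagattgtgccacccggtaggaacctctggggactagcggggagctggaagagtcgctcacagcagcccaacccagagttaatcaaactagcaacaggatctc
Rxrg, downstream start, chr1:167618015-167618264: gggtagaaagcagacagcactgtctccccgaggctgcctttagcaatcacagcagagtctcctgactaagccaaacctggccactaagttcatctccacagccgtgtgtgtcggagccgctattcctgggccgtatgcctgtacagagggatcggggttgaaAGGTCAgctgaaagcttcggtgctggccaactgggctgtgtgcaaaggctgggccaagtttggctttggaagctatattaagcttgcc
The hexamer lies at bases −88 to −83 from the downstream start, and the bases before the upstream start hold none on either strand. The RefSeq table does not say which start gives the transcript that the probe was designed for (NM_009107). Over all 10 receptor genes, AGGTCA was found on either strand in 5 of 18 windows of 300 bases (250 before and 50 after the start), against 16.3% of 32851 RefSeq windows of that length. The 5 windows belong to 4 genes, Rxrg, Rxra, Pparg and Nr5a2. The spaced repeats AGGTCANAGGTCA, the arrangement bound by PPAR with RXR and by HNF4A, and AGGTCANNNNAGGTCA, the arrangement bound by LXR with RXR, both of which contain the hexamer, were found on either strand in 0 of the 18 windows. They were found in 0.0396% and 0.0152% of all windows.

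The log2 signal of Rxrg was 7.85, 8.18 and 8.34 in control 1 to 3 and 9.33, 9.86 and 9.49 in soy 1 to 3. The lowest soy array lay above the highest control array by more than the spread within either group, with soy 2 the highest of all. The group means were 8.12 ± 0.25 in control and 9.56 ± 0.27 in soy (SD, n = 3), a log2 change of 1.44 (SE 0.177, limma adjusted p = 0.0297). Within slide 1 the change was 1.32 and within slide 3 it was 1.16. With the slide as a block the change was 1.25 and the adjusted p 0.112, so the call was lost while the direction was kept. That estimate takes nothing from soy 2, which was alone on its slide, and 0.0698% of named genes passed in that setting. When 1 array was left out, Rxrg passed without control 3 (adjusted p = 0.0431) but not without control 1 (0.0659), control 2 (0.0978), soy 1 (0.0664), soy 2 (0.0968) or soy 3 (0.106), and the change lay between 1.29 and 1.56.

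Rxra encodes RXR-alpha, the main hepatic form and partner of PPARA, LXR-alpha, FXR, PXR and CAR. Its brightest probe (NM_011305) read 16.20, 16.44 and 16.32 in control and 16.27, 16.21 and 16.36 in soy. All 3 soy values lay inside the range of the control values. The change was −0.04 (SE 0.105, adjusted p = 0.918), and its 95% interval ran from −0.28 to 0.21, which leaves room for a difference of up to that size. A dimmer probe of the same transcript changed by −0.03.

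Rxrb encodes RXR-beta, a form found in most tissues. Its brightest probe (NM_001205214) read 13.27, 13.00 and 13.20 in control and 12.85, 12.96 and 12.97 in soy. All 3 soy arrays were below all 3 control arrays, although control 2 lay close to the soy group. The change was −0.23 (SE 0.109, interval −0.48 to 0.02, adjusted p = 0.475). The dimmer probes changed by −0.24 (NM_011306, adjusted p = 0.535, groups without overlap) and −0.27 (NM_001205214, adjusted p = 0.536, groups overlapping). None of the 3 probes passed, and the brightest was lower in soy in each of 18 refits with another setting or with 1 array left out. These refits reuse the same arrays, and leaving 1 out could not turn the sign of groups without overlap.

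The unequal behaviour of the RXR genes was examined within arrays, where a shift of the whole array cancels. The log2 signal of Rxrg minus that of Rxra was −8.35, −8.26 and −7.98 in control and −6.93, −6.35 and −6.86 in soy, and only the shift between groups can be read, since the probes differ. The shift was 1.48, a 2.79-fold change of the ratio, and all 3 soy arrays lay above all 3 controls. Rxrg minus Rxrb was −5.42, −4.82 and −4.86 in control and −3.51, −3.10 and −3.48 in soy, a shift of 1.67 or 3.19-fold. Again the groups did not overlap, with control 1 the lowest. An exact two-sided permutation test of 3 against 3 gave p = 0.1 for both pairs (0.15 after Benjamini-Hochberg adjustment over 3 pairs), and 0.1 is the smallest p this design allows. Rxra minus Rxrb shifted by 0.19 with overlapping groups (exact p = 0.4, adjusted 0.4).

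**Figure D2:**
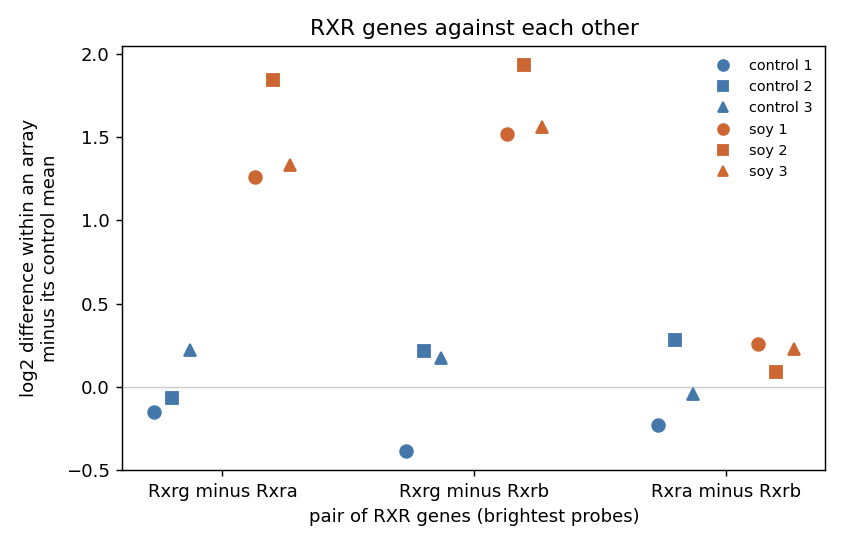
Difference between the log2 signals of RXR genes on the same array, minus its mean over the 3 control arrays. Each point is an array, blue for control and orange for soy. The soy arrays lie above the control arrays for Rxrg minus Rxra (shift 1.48) and Rxrg minus Rxrb (1.67), and the groups overlap for Rxra minus Rxrb (0.19).

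Ppara encodes PPAR-alpha, which drives fatty acid oxidation and ketogenesis in hepatocytes. Its brightest probe (NM_011144) read 14.92, 14.71 and 14.24 in control and 14.91, 14.74 and 14.41 in soy. The groups overlapped, and the arrays of slide 1 and of slide 3 each spanned a smaller range than the arrays of either diet. The change was 0.07 (SE 0.201, interval −0.40 to 0.53, adjusted p = 0.929). A dimmer probe of the transcript pointed the other way, by −0.10 (adjusted p = 0.905).

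Ppard encodes PPAR-delta, a fatty acid sensor found in most tissues. It read 9.73, 9.68 and 9.50 in control and 9.52, 9.38 and 9.98 in soy (NM_011145). The soy group held both the lowest and the highest array. The change was −0.01 (SE 0.165, interval −0.39 to 0.37, adjusted p = 0.989), with −0.18 within slide 1 and 0.48 within slide 3.

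Pparg encodes PPAR-gamma, the master regulator of fat cells, whose level in liver is known to rise in steatosis. Its probe (NM_011146) read 9.86, 9.90 and 10.37 in control and 11.72, 10.91 and 11.26 in soy. The groups did not overlap, and soy 1 was the highest array while the third control was nearest to the soy group. The means were 10.04 ± 0.285 and 11.30 ± 0.407 (SD, n = 3), and the change was 1.25 (SE 0.226, interval 0.73 to 1.78, unadjusted p = 0.000646, limma adjusted p = 0.0811). The change was 1.84 within slide 1 and 0.89 within slide 3. Pparg passed in 2 of 18 refits, with the processed signal (adjusted p = 0.0119) and with probes above background only (0.0425), settings under which 25.7% and 2.05% of the named genes tested passed, and the adjusted p over the 18 refits ran up to 0.224. Fat tissue in the sample was checked with 5 adipocyte markers, of which 0 passed and 0 had an unadjusted p under 0.05 (limma), against 0.532% and 14.3% of named genes. Of the 5, 1 was well above background on all 6 arrays and 2, Adipoq and Plin1, on none. The log2 of the summed signal of the list, in which Lep was the brightest gene, was 10.79, 10.99 and 11.17 in control and 10.90, 10.92 and 10.72 in soy.

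**Figure D3:**
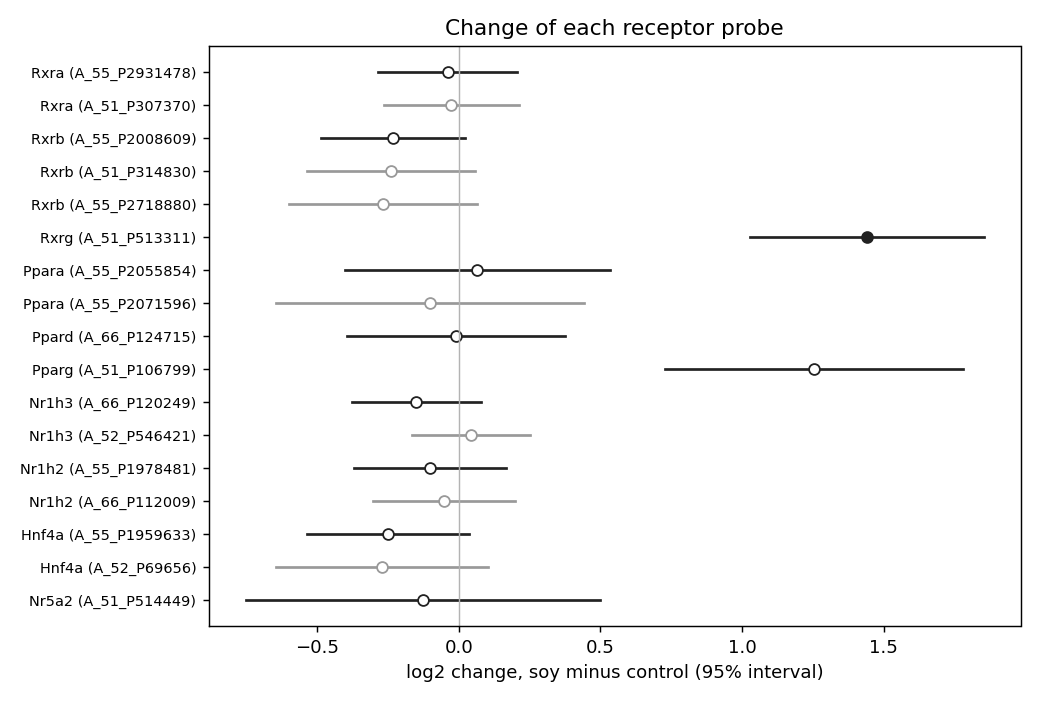
Log2 change of soy against control with its 95% interval for all 17 receptor probes (black, brightest probe of a gene; grey, other probes; filled, passes). Only the Rxrg probe passes (1.44, interval 1.03 to 1.85), the Pparg interval (0.73 to 1.78) also lies above 0, and the other 15 intervals include 0.

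Nr1h3 encodes LXR-alpha, the oxysterol sensor that turns on cholesterol efflux and fatty acid synthesis genes. Its brightest probe (NM_013839) read 14.26, 14.43 and 14.26 in control and 14.14, 14.16 and 14.21 in soy. The soy arrays were all lower, by a margin that was small beside the spread of the controls. The change was −0.15 (SE 0.097, interval −0.38 to 0.08, adjusted p = 0.616). The other probe of this transcript changed by 0.04 (adjusted p = 0.893) with overlapping groups, so the probes disagreed in sign. Nr1h2 encodes LXR-beta, the form found in most tissues. It read 13.56, 13.31 and 13.53 in control and 13.23, 13.43 and 13.43 in soy (NM_009473), with overlapping groups and a change of −0.10 (SE 0.115, interval −0.37 to 0.17, adjusted p = 0.787). A dimmer probe (NM_001285518) changed by −0.05 (adjusted p = 0.892).

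Hnf4a encodes a master regulator of hepatocyte genes. Its brightest probe (NM_008261) read 16.72, 16.40 and 16.51 in control and 16.42, 16.30 and 16.16 in soy. Soy 2 and soy 3 were below every control array, and soy 1 lay just above control 2. The change was −0.25 (SE 0.123, interval −0.54 to 0.04, adjusted p = 0.495), and a dimmer probe changed by −0.27 (adjusted p = 0.581). Nr5a2 encodes LRH-1, which binds DNA as a monomer and supports bile acid synthesis genes. It read 12.35, 13.21 and 12.72 in control and 12.15, 12.79 and 12.96 in soy (NM_030676). The groups overlapped over most of their range, and the probe had the widest interval of the 17, −0.75 to 0.50 around a change of −0.13 (SE 0.268, adjusted p = 0.895).

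**Figure D4:**
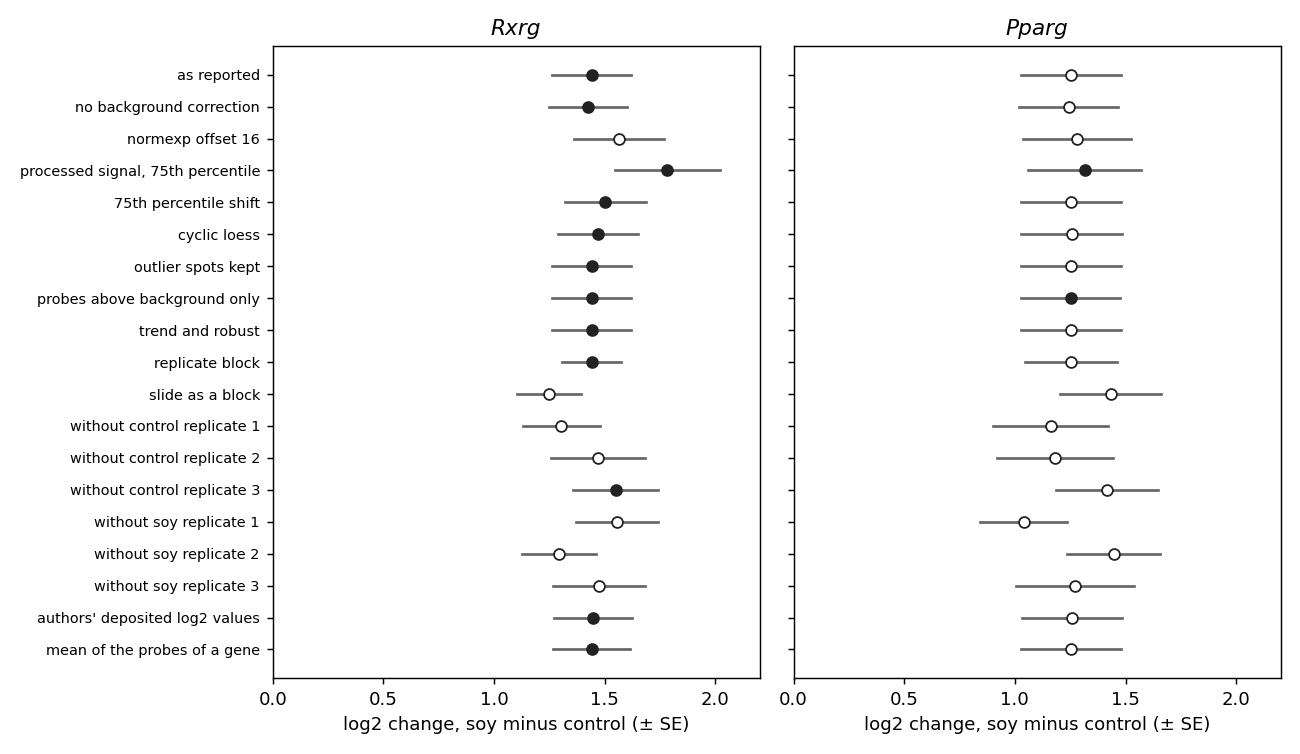
Log2 change of Rxrg and Pparg with its standard error under each processing setting and with each array left out (filled, adjusted p under 0.05). The changes stay above 1 throughout, from 1.25 to 1.78 for Rxrg and from 1.04 to 1.45 for Pparg, while the adjusted p is under 0.05 in 11 of the 18 Rxrg refits and 2 of the 18 Pparg refits.

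The profile of Rxrg over the 6 arrays was compared with 15105 other named genes, each centred on its own mean, by the root mean square difference in log2 units. The nearest was Cd79b, a chain of the B cell receptor (0.0837), followed by Mtnr1a, a melatonin receptor (0.108), Ppfibp2, a liprin (0.170), Cldn1, a tight junction protein (0.182), and Acot2, a mitochondrial acyl-CoA thioesterase (0.191). Likeness to Rxrg implies a like difference between diets, so the changes of these genes (1.30, 1.33, 1.40, 1.48 and 1.44) are a description.

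Because Cd79b was nearest, a list of 5 B cell markers was added after its value was seen. Cd79b read 7.40, 7.87 and 7.94 in control and 8.80, 9.30 and 9.02 in soy. Of the 5, Cd79b, around which the list was built, and Ms4a1 passed and were higher by 1.30 and 0.93, against 0.532% of named genes passing, while Cd79a, Pax5 and Cd22 changed by 0.02, −0.09 and −0.11. The median change of the list was 0.02. Cd79a, the other chain of the same receptor, was well above background on 2 control arrays and on no soy array. The log2 of the summed signal of the list, whose brightest gene was Cd22, was 11.08, 11.31 and 11.22 in control and 11.44, 11.56 and 11.12 in soy, with soy 3 inside the control range. The part of these markers in the Rxrg result was not tested.

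Markers of 8 cell types or tissues were measured beside the receptors, and in 0 of the 8 lists did a gene pass. Of all named genes 0.532% passed and 14.3% had an unadjusted p under 0.05. For hepatocytes the median change was −0.11 with 2 of 6 genes at an unadjusted p under 0.05, and Alb was the brightest gene. For Kupffer cells it was 0.24 (0 of 6, brightest Cd5l), for stellate cells −0.12 (0 of 6, Dcn), for endothelial cells −0.10 (0 of 6, Clec4g), for cholangiocytes 0.12 (0 of 5, Spp1), for adipocytes −0.08 (0 of 5, Lep) and for skeletal muscle 0.03 (0 of 6, Tnnt3). Of the 6 muscle markers 2 were well above background on all 6 arrays and 2, Ckm and Myh4, on none. Pancreas markers stood apart, with 6 of 6 lower, a median of −0.42 and 3 of 6 at an unadjusted p under 0.05. Their summed log2 signal, led by Cela1, was 14.90, 15.51 and 15.25 in control and 14.46, 14.78 and 14.33 in soy, without overlap, and their part in the receptor values was not tested.

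Among 10 other receptors that pair with RXR, 1 gene passed, against 0.532% of named genes, and the median change was 0.16, with 8 higher and 2 lower. This was Nr1i3 (CAR), the sensor of xenobiotics and bilirubin. Its brightest probe (NM_009803) read 11.45, 11.39 and 11.94 in control and 12.54, 12.37 and 12.41 in soy, and did not pass (change 0.85, SE 0.157, adjusted p = 0.0877). Its dimmer probe (NM_001243062) read 9.35, 9.37 and 9.69 in control and 10.29, 10.43 and 10.31 in soy, and passed (change 0.87, SE 0.123, adjusted p = 0.0426). The groups did not overlap on either probe. Neither probe passed with a normexp offset of 16, when replicate or slide was entered as a block, or when any array but control 3 was left out.

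Of 20 further nuclear receptors, 0 passed in limma and 6 had an unadjusted p under 0.05, against 0.532% and 14.3% of named genes, and the median change was 0.05. The widest difference was that of Nr1d1 (REV-ERB-alpha, a clock repressor), −1.58 with an adjusted p of 0.106. With the processed signal 4 of the 20 passed, Nr1d1 among them, where 25.7% of all named genes did. With probes above background only 1 did, where 2.05% of the 15133 named genes tested did. Of 16 coactivators and corepressors, 0 passed and 1 had an unadjusted p under 0.05, read against the same shares. Their median was 0.02, with Ppargc1b (PGC-1-beta) at −0.59 (adjusted p = 0.622) and Nrip1 (RIP140) at 0.47 (adjusted p = 0.152). Of 12 hepatocyte transcription factors, 0 passed and 4 had an unadjusted p under 0.05, again beside 0.532% and 14.3% of named genes, and the median was −0.01. Foxa3, a pioneer factor, changed by −0.69 (adjusted p = 0.106) and passed with the processed signal, as 25.7% of named genes did, and Cebpb changed by −0.66 (adjusted p = 0.293).

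Genes under the control of these receptors were read from lists taken from general knowledge. The lists were written with earlier results of these data known, so their counts are a description and not independent evidence. Of 20 PPARA targets, 4 passed, all higher in soy, against 0.532% of named genes in either direction and 0.340% that were higher, and the median change was 0.51 with 16 higher and 4 lower. The groups did not overlap in 15 of the 20, of which 13 were higher and 2 lower in soy, against 20.4% of named genes in either direction. The 2 lower genes were Angptl4, an inhibitor of lipoprotein lipase, at −0.64 (adjusted p = 0.0689) and Cpt1a, the gate of mitochondrial fatty acid import, at −0.51 (adjusted p = 0.256). Cyp4a14, a fatty acid omega-hydroxylase, was higher by 3.27 (adjusted p = 0.00785), although it was well above background on 2 of the 3 control arrays. Pdk4, the kinase that shuts off pyruvate dehydrogenase, was higher by 1.87 (0.0151), the acyl-CoA thioesterase Acot1 by 1.78 (0.0316) and the peroxisomal thiolase Acaa1b by 1.13 (0.0194). The count fell to 2 without control 1 (where 0.275% of all named genes passed) and to 1, Cyp4a14, without soy 1 (0.131%), soy 2 (0.0786%) or soy 3 (0.0698%). It was 2 with the replicate number (0.218%) and 1 with the slide (0.0698%) as a block, and 3, without Acot1, with a normexp offset of 16 (0.210%). It was 6 with the processed signal, where 25.7% of all named genes passed. It was also 6 with probes above background only, where 2.05% of the 15133 named genes tested passed. In both settings Ehhadh and Angptl4 were added. With trend and robust eBayes it was 5, where Angptl4 was added and 0.799% of all named genes passed. The passing genes were thus not all higher in soy with the processed signal, with probes above background only or with trend and robust eBayes.

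Of 6 PPARG targets known from fatty liver, 0 passed and 0 had an unadjusted p under 0.05 (14.3% of named genes), with a median of 0.13. Cidec, a lipid droplet protein, changed by 0.61 (adjusted p = 0.648) and Cd36, a fatty acid transporter, by 0.46 (adjusted p = 0.567), both with overlapping groups. Cidec read 9.83, 9.11 and 9.74 in control and 11.23, 9.54 and 9.72 in soy, so soy 1 alone stood above the controls. Soy 1 was also the array with the highest Pparg signal. The log2 of the summed signal of the list was 12.97, 11.82 and 11.93 in control and 12.75, 11.96 and 12.23 in soy. Control 1, the highest array by this sum, had the lowest Pparg signal. A link between Pparg and these genes was not tested.

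Of 14 LXR targets, 0 passed and 3 had an unadjusted p under 0.05, against 0.532% and 14.3% of named genes. Their median was −0.05, with 3 higher and 11 lower. Abcg8, which with Abcg5 exports sterols into bile, changed by −0.86 (adjusted p = 0.0906), and Scd1, the stearoyl-CoA desaturase, by −0.73 (adjusted p = 0.537). Abcg8 passed with the processed signal, again against 25.7% of named genes. It also passed with probes above background only, against 2.05% of the 15133 named genes tested. Of 13 HNF4A targets, 0 passed and 6 had an unadjusted p under 0.05, against 0.532% and 14.3% of named genes. Their median was −0.08, with 4 higher and 9 lower. Pck1, the rate-limiting enzyme of gluconeogenesis, read 17.81, 17.85 and 17.54 in control and 17.07, 16.74 and 16.84 in soy. It was lower on every soy array, by −0.84 (SE 0.132, adjusted p = 0.0568), and Apoa4 changed by −0.76 (adjusted p = 0.235). The count of HNF4A targets passing was 1, Pck1, with the 75th percentile shift (0.790% of all named genes) and cyclic loess (0.519%). It was also 1, Pck1, with trend and robust eBayes (0.799%) and the mean of a gene's probes (0.567%). Pck1 alone passed with probes above background only too (2.05% of the 15133 named genes tested). With the processed signal the count was 2, Pck1 and Cyp8b1, where 25.7% of named genes passed. Of 6 NR5A2 targets, 0 passed and 2 had an unadjusted p under 0.05 (14.3% of named genes), with a median of 0.15. Among these was the bile acid enzyme Cyp8b1 (0.71, adjusted p = 0.136). The count of NR5A2 targets passing was 2 with the processed signal, Cyp8b1 among them (25.7% of all named genes). It was 1 with probes above background only (2.05% of the 15133 named genes tested).

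**Figure D5:**
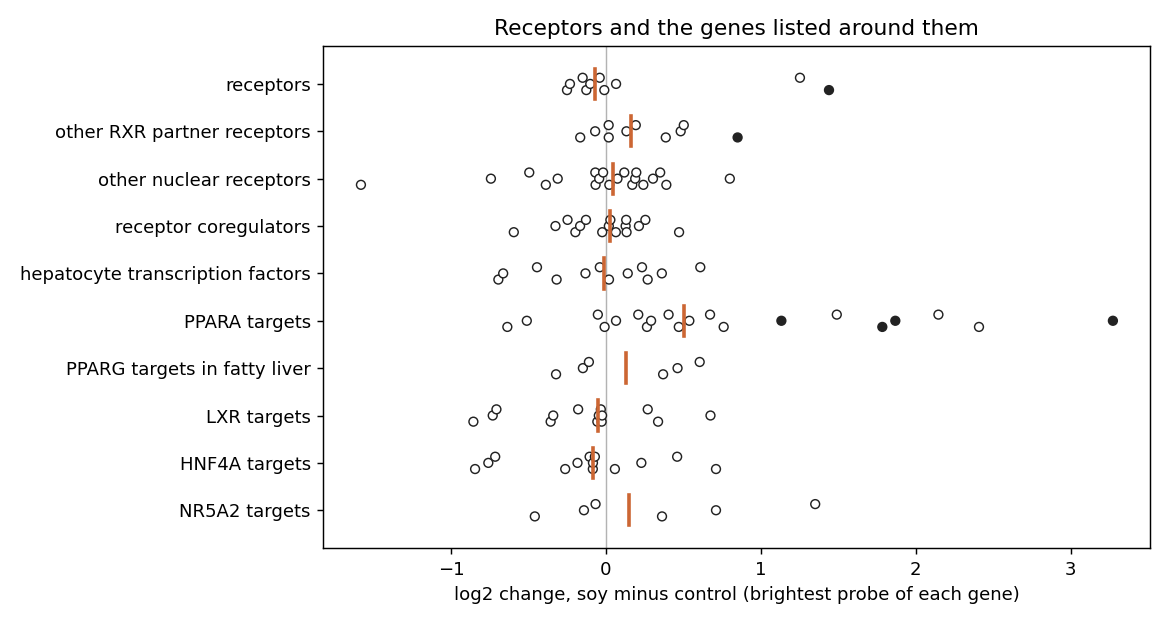
Log2 change of soy against control on the brightest probe of each gene in the receptor list and the lists of related genes (orange bar, list median; filled, the gene has a passing probe, which for Nr1i3 is its dimmer one). The PPARA targets have the highest median (0.51) and 4 filled points, while the medians of the other lists lie between −0.08 and 0.16.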

How the data were processed

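Liver RNA of 3 control and 3 soy mice was profiled with 1 array per mouse. The deposited scanner output holds, per the file headers, the median intensity of each spot and its local background from Feature Extraction 11.5.1.1, without scaling between arrays, together with a background-subtracted processed signal. A second deposited table holds the authors' log2 values, within 0.0561 of the ones obtained here. The methods name limma and Benjamini-Hochberg adjustment, and the normalization is not given in the sources used here.

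Intensities were background corrected with normexp (offset 50) over all spots, control spots were removed, and arrays were quantile normalized and log2 transformed. Outlier spots were left out, and spots of a probe were averaged. limma 3.58.1 (R 4.3.3) was fitted to all 56605 probes with Benjamini-Hochberg adjustment over all of them. A gene counted as passing through any 1 of its probes, and its brightest probe was given first. Every adjusted p in the text is from limma, except those of the RXR differences. RefSeq accessions were turned into symbols with a GRCm38.p6 gene table (32994 probes, 58.3%), and no probe positions are printed, because the array annotation used a different build. Promoter sequences and their positions are those of RefSeq (GRCm38.p6), and all 10 genes matched. RXR differences were tested by exact permutation (SciPy 1.17.1) with adjustment over the 3 pairs. Tables and plots were made with Python 3.11.15, pandas 2.3.3 and matplotlib 3.10.9. The fit was tested on simulated data with independent normal noise for each probe. Slides and the unequal numbers of detected spots were not part of that test.

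The text names every receptor, the passing genes of each list (at most the 5 largest changes) or, where none passed, the 2 largest changes among probes detected over background throughout a group, and the 5 genes most like the receptor with the largest change. The members, gene lists and this rule were chosen with earlier results of these data known. Some genes that this rule names, and 1 marker of a list, are not reported here. Angptl4, Cpt1a, Ehhadh, Cd79a, Ms4a1, Pax5, Cd22, Adipoq, Plin1, Ckm and Myh4 were named after their values were seen. Alternative settings were an offset of 16 or no background correction, cyclic loess, a 75th percentile shift, the processed signal, probes above background only, outlier spots kept, trend and robust eBayes, the replicate number or slide as a block, the authors' log2 values, adjusted p alone, the mean of a gene's probes, values within slides and each array left out. With 3 arrays per group, p-values set the difference between diets against the spread between arrays, and the number of arrays limits the precision. Each mouse had its own array, so this spread holds differences between mice and between arrays together.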

Additional observations from a re-analysis of the deposited data

How the results depend on the processing

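The count of passing probes, 198 as reported (59.6% of them higher in soy), was 77 with an offset of 16, 13138 with the processed signal (90.8% higher), 299 with the 75th percentile shift (67.6% higher), 493 with probes above background only, 24 with the slide as a block and 23 to 199 with 1 array left out. The number of receptor genes passing, 1 as reported, was 0 with the offset of 16 and the slide as a block. It was 2 with the processed signal, where 25.7% of named genes passed. It was also 2 with probes above background only, where 2.05% of the 15133 named genes tested passed. With 1 array left out it was 0 to 1. The processed signal and the 75th percentile shift moved the median change of all probes by 0.14 and 0.14, to 0.13 and 0.13, and relative to that median Rxrg changed by 1.66 and 1.37 and Pparg by 1.19 and 1.12. Rxrg kept its direction in all 18 refits, which reuse the same arrays and start from groups that did not overlap. It did not pass with the offset of 16 (1.56, adjusted p = 0.0540) or the slide as a block (1.25, adjusted p = 0.112), its change lay between 1.29 and 1.56 with 1 array left out, and it was 1.16 within slide 3, where Rxrg minus Rxra shifted by 1.11. With 1 array left out, Rxrg minus Rxra shifted by 1.30 to 1.59, Rxrg minus Rxrb by 1.48 to 1.78 and Rxra minus Rxrb by 0.08 to 0.33. With the processed signal these shifts were 1.92, 1.98 and 0.066. Changes near 0 turned their sign. Ppard was at 0.032 with the processed signal, 0.010 with the 75th percentile shift, 0.000617 with cyclic loess, 0.10 with the slide as a block and −0.19 to 0.11 with 1 array left out. The dimmer Rxra probe was at 0.012 with the 75th percentile shift, 0.011 with the slide block and −0.072 to 0.043 with 1 array left out, and the brighter at −0.10 to 0.021. The dimmer Ppara probe was at 0.0071 with the slide block and −0.33 to 0.14 with 1 array left out, the brighter at −0.017 as the mean of both and −0.12 to 0.21. Nr5a2 was at −0.33 to 0.11 with 1 array left out. The causes were not tested. Within slide 3, untested, the sign also turned for the Rxra probes (0.04 and 0.11), the dimmer Ppara probe (0.14), Ppard (0.48), Nr5a2 (0.25, against −0.63 within slide 1) and the dimmer Nr1h3 probe (−0.03). The probes of Rxrb, Nr1h2 and Hnf4a and the brighter Nr1h3 probe kept their sign in every refit and within slides 1 and 3.

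The labels number replicates 1 to 3 in both groups. Deviations of same-numbered arrays correlated at 0.116, −0.06 and 0.106 (27282 probes), so the numbers were not taken as pairs. With the replicate number as a block 77 probes passed, Rxrg among them (1.44, adjusted p = 0.0484), Nr1i3 did not pass and 2 PPARA targets did. An exact sign-flip test of the RXR differences gave p = 0.25, 0.25 and 0.5, of which 0.25 is the smallest possible with 3 pairs. The count per probe could not be recomputed for the mean of a gene's probes, where 130 genes passed. Signal over background limits the dim genes, such as Cyp4a14 in control.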
